A study of Mus musculus with 8 samples.

Results

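The genes described here make, desaturate and burn long-chain fatty acids. They are 15 genes of fatty acid synthesis and 22 of fatty acid oxidation, 37 in all, taken by symbol from the 22050 genes with an mRNA model in the series. All 37 were listed in every library, and 36 passed the filter on low counts, the exception being Ppara. Libraries were made from haematopoietic stem cells (HSCs), the rare marrow cells from which the blood lineages arise. Marrow of C57BL/6 mice, an inbred strain, was sorted for CD150+ CD48- EPCR+ Lineage- cells, with 100 cells named for each library. One group held 4 libraries of postnatal day 5 (P5), the other 4 libraries of 4 weeks of age, and no treatment or allele is named for either. Nothing in the labels says which libraries came from separate animals, so the p-values rest on a spread between samples that may be technical. Y-linked reads, given below, set P5 replicates 1 and 3 apart from the other P5 libraries.

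Fatty acid synthesis runs in the cytosol. Citrate lyase and acetyl-CoA synthetases supply acetyl-CoA, acetyl-CoA carboxylase makes malonyl-CoA from it, and fatty acid synthase builds palmitate with NADPH, part of which comes from malic enzyme. Elongases and desaturases then lengthen the chain and add double bonds, and the transcription factor SREBP-1 turns many of these genes on. In oxidation, carnitine palmitoyltransferases carry acyl chains into mitochondria, where dehydrogenases, a hydratase, a second dehydrogenase and a thiolase shorten them, and electron-transferring flavoprotein passes the electrons on. Malonyl-CoA inhibits the carnitine step, so active synthesis restrains oxidation. HSCs of adult mice are known to depend on fatty acid oxidation for self-renewal.

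The libraries held between 5775130 and 7470777 exon reads. Synthesis genes together took 11329 to 16132 of these in a library, and oxidation genes 6463 to 9777. Levels are given as CPM, the usual depth-scaled exon read count, on library sizes corrected with edgeR's TMM factors. Each of 12 HSC marker genes had reads in every library, and their summed level was 5245 to 5879 CPM at P5 and 4535 to 5186 CPM at 4 weeks, with 5 of them called higher. Several markers of other cells differed between the ages. The sum of 11 erythroid markers was 660 to 1005 CPM at P5 and 176 to 310 CPM at 4 weeks, but Hbb-bt was the only one called higher, and Alas2 had no read. The sum of 10 macrophage and monocyte markers was 182 to 475 CPM at P5, highest in P5 replicate 2, and 170 to 196 CPM at 4 weeks, with Csf1r, Cd68 and Fcgr1 called higher. For Csf1r, P5 replicate 2 stood apart, with 5.04, 158, 7.92 and 3.53 CPM at P5 and 3.45 to 3.95 CPM at 4 weeks, and the ages overlapped. The sum of 8 B cell markers was 34.1 to 51.7 CPM at P5 and 20.9 to 26.1 CPM at 4 weeks, with Cd79b called higher and Ms4a1 and Pax5 at 0, and 10 megakaryocyte markers summed to 363 to 488 CPM at P5 and 489 to 623 CPM at 4 weeks, with Gp9 called higher and Itga2b and Itgb3 lower. Stromal markers, 10 in all, summed to 12.6 to 32.5 CPM at P5 and 12.9 to 89.8 CPM at 4 weeks, with Pdgfrb called lower and Lum at 0, and the highest sum was that of 4-week replicate 4, where Cxcl12 had 50.4 CPM and Lepr 5.68 CPM. Endothelial markers, 10 in all, summed to 603 to 691 CPM at P5 and 564 to 688 CPM at 4 weeks. Tie1, Pecam1 and Esam gave most of that sum, with means of 323, 140 and 114 CPM at P5. At 4 weeks their means were 369, 112 and 116 CPM. Kdr averaged 5.08 CPM at P5 and 4.41 CPM at 4 weeks, and Stab2 2.11 and 2.05 CPM. Cdh5 was called higher, at 5.73 to 19.4 CPM at P5 and 0 to 0.168 CPM at 4 weeks. Granulocyte markers, 10 in all, summed to 27.2 to 46.3 CPM at P5 and 27.9 to 36.7 CPM at 4 weeks, with Mpo and Ltf called higher, S100a8 lower at 0 in every P5 library and 2.05 to 3.32 CPM at 4 weeks, and Ctsg and Ly6g at 0. T and NK cell markers, 9 in all, summed to 5.98 to 12.3 CPM at P5 and 9.48 to 18.6 CPM at 4 weeks, with Nkg7 called lower and 5 at 0, Cd3e among them. The part of these cells in the results was not tested. Reads of Y-linked genes were all but absent from P5 replicates 1 and 3 (at most 2 reads) and present in the other 6 libraries. P5 replicate 1 had the lowest share of intron reads, 60.1% against 66.8% to 68.7% in the others.

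The summed RNA of each pathway overlapped between the ages. Synthesis genes summed to 2199, 1934, 2093 and 2121 CPM in the P5 libraries, and to 2119, 2189, 1906 and 2086 CPM in the 4-week libraries. Oxidation genes summed to 1333, 1226, 1181 and 1163 CPM in the P5 libraries, and to 1144, 1114, 1248 and 1194 CPM in the 4-week libraries. The mean sum at P5 was 1.01 times that at 4 weeks for synthesis and 1.04 times for oxidation, and P5 replicate 1 was the highest library for each. Fewer cells of a kind and less RNA per cell cannot be told apart in such bulk libraries.

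Single genes did differ, in both directions. The test was edgeR's quasi-likelihood test, with a call at an adjusted p (Benjamini-Hochberg) under 0.05. It put 2 of 15 synthesis genes higher and 3 lower at P5, where it put 7.99% of all 12235 genes higher and 8.55% lower. Of 21 oxidation genes tested, 2 were higher and 1 lower. In all, 33.3% of the synthesis genes and 14.3% of the oxidation genes were called, beside 16.5% of all genes tested. The median log2 fold change of P5 over 4 weeks was -0.06 for synthesis and 0.04 for oxidation, beside -0.0042 for all genes. The libraries of the ages did not overlap for 6 synthesis and 6 oxidation genes, nor for 21.2% of all genes tested. In the plot of fold changes, the genes called higher lie close together in both pathways, between 0.39 and 0.47 on the log2 scale.

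**Figure D1:**
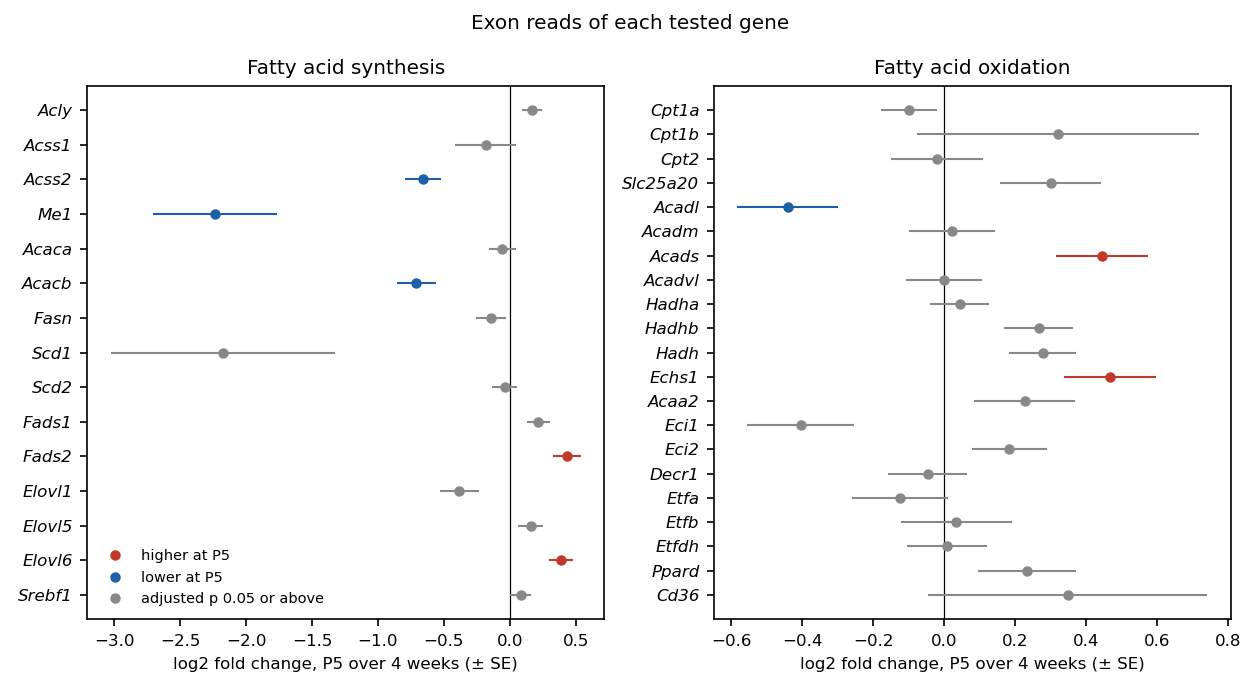
Log2 fold change of exon reads, P5 over 4 weeks, with its standard error, for the 15 synthesis (left) and 21 oxidation genes tested (right), on horizontal axes of different range. Red points were higher and blue points lower at P5 at an adjusted p under 0.05, and grey points were not called. Me1 and Scd1 had the lowest values of the synthesis genes, with wide errors.

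The 3 synthesis genes called lower were Acss2 and Me1, of acetyl-CoA and NADPH supply, and Acacb, a carboxylase. The more abundant Acly and Acaca were not called. Acss2, the cytosolic and nuclear acetyl-CoA synthetase that makes acetyl-CoA from acetate (chromosome 2, 155518043 to 155562743; all positions are on GRCm38.p6), had 33.0, 28.3, 38.9 and 27.9 CPM at P5. At 4 weeks it had 48.2, 45.3, 50.8 and 57.5 CPM. Every P5 library was below every 4-week library. Acss2 was 1.58-fold lower at P5 (log2 fold change -0.66, SE 0.134, edgeR adjusted p = 0.00429). Exons of Acss2 overlap those of Ggt7, Gss and an antisense gene on the other strand in GENCODE M21, and libraries made with a Nextera kit do not mark strand, so reads of these genes cannot be told apart there.

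Acacb encodes the carboxylase of the outer mitochondrial membrane, whose malonyl-CoA restrains the entry of acyl chains (chromosome 5, 114146321 to 114250761). It had 16.4, 16.2, 16.3 and 16.2 CPM at P5, against 28.4, 21.4, 25.2 and 31.2 CPM at 4 weeks. The P5 libraries were nearly equal and all lower, and Acacb was 1.63-fold lower at P5 (log2 fold change -0.71, SE 0.147, edgeR adjusted p = 0.00487). Its cytosolic partner Acaca, which makes malonyl-CoA for chain building, averaged 165 ± 14.7 CPM at P5 and 172 ± 23.5 CPM at 4 weeks (SD, n = 4 each) and was not called (log2 fold change -0.06, SE 0.101, adjusted p = 0.765). Per kb of exon, Acacb made up 9.19%, 9.64%, 8.17% and 8.30% of the carboxylase RNA at P5 and 15.7%, 9.25%, 12.97% and 15.5% at 4 weeks. Of the exon reads, 36.8% of Acaca's and 100% of Acacb's mapped uniquely, and shares on uniquely mapped reads alone were not computed. The share in 4-week replicate 2 lay within the P5 range, and that library had the highest Acaca level. Both Acss2 and Acacb kept their calls in all 20 alternative settings.

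Me1, the cytosolic malic enzyme that yields NADPH (chromosome 9, 86581363 to 86695914), was scarce at both ages. It had 0.545, 0.933, 0.646 and 2.12 CPM at P5, and 5.85, 5.51, 6.06 and 3.05 CPM at 4 weeks. The libraries of the ages did not overlap, and Me1 was 4.71-fold lower at P5 (log2 fold change -2.24, SE 0.472, edgeR adjusted p = 0.0053). These values rest on 29 reads at P5 and 127 at 4 weeks. With a covariate for Y-linked reads, the log2 fold change was -1.72 and the call was lost (adjusted p = 0.0633), the range over 19 alternatives being 0.000186 to 0.412. Exons of Me1 overlap an antisense gene, and its intron reads gave -0.59 on the log2 scale (SE 0.469, adjusted p = 0.412).

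The other suppliers of acetyl-CoA were not called. Acly, the ATP citrate lyase, averaged 332 ± 30.6 CPM at P5 and 296 ± 7.31 CPM at 4 weeks (SD, n = 4 each), with an edgeR adjusted p of 0.167 for a log2 fold change of 0.17. Acss1, the mitochondrial acetyl-CoA synthetase, had 31.7 to 46.8 CPM at P5 and 24.0 to 63.9 CPM at 4 weeks (adjusted p = 0.648). Fasn, fatty acid synthase, had 416, 317, 363 and 434 CPM at P5, and 434, 483, 338 and 433 CPM at 4 weeks. Its ages overlapped widely (log2 fold change -0.14, SE 0.117, adjusted p = 0.456). Srebf1, which encodes SREBP-1, had 109 to 120 CPM at P5 and 101 to 117.1 CPM at 4 weeks and was not called (log2 fold change 0.08, SE 0.0802, adjusted p = 0.532).

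**Figure D2:**
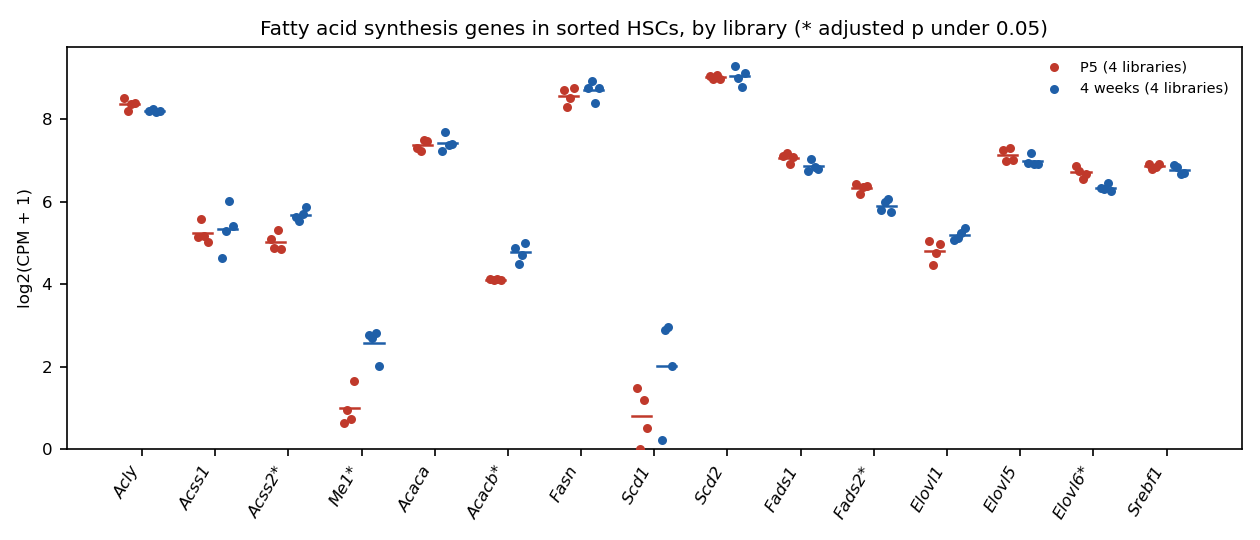
Level of each synthesis gene in each library, as log2(CPM + 1), with P5 libraries in red left of 4-week libraries in blue. Horizontal bars are means of the log2 values of 4 libraries, and asterisks mark genes with an adjusted p under 0.05. Scd2, Fasn and Acly had the highest mean CPM at both ages, not corrected for length, and Scd1 and Me1 the lowest.

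Further along the pathway, 1 of 4 desaturases and 1 of 3 elongases were called higher at P5. Fads2, the delta-6 desaturase that opens the route to highly unsaturated fatty acids (chromosome 19, 10062765 to 10101503), had 84.7, 71.8, 80.6 and 82.1 CPM at P5. At 4 weeks it had 54.8, 62.9, 66.1 and 52.5 CPM. The P5 libraries were all above the 4-week ones, and Fads2 was 1.35-fold higher (log2 fold change 0.44, SE 0.103, edgeR adjusted p = 0.0106). With Y-linked reads as a covariate the log2 fold change was 0.38 and the call was lost (adjusted p = 0.076, range over 20 alternatives 0.0015 to 0.0962). Fads1, the delta-5 desaturase that acts after it, lies 81.1 kb away and had 137, 145, 119 and 134 CPM at P5, and 106, 131, 113 and 110 CPM at 4 weeks. Fads1 was not called (log2 fold change 0.22, SE 0.0899, adjusted p = 0.123). The level in 4-week replicate 2 lay within the P5 range, and without that library Fads1 was called higher (adjusted p = 0.0319, range over 20 alternatives 0.0319 to 0.279).

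Elovl6, the elongase that turns palmitate into stearate (chromosome 3, 129532386 to 129638495), had 115, 107, 92.3 and 102 CPM at P5, and 79.2, 77.7, 86.0 and 75.1 CPM at 4 weeks. Every P5 library was higher, by 1.31-fold on average (log2 fold change 0.39, SE 0.0909, edgeR adjusted p = 0.00967). Exons of Elovl6 overlap an antisense gene, and those of Elovl1 overlap Cdc20 on the other strand. Elovl1, an elongase of saturated very long chains, had 32.3, 21.0, 25.9 and 30.5 CPM at P5 against 32.4, 33.9, 36.7 and 39.9 CPM at 4 weeks. The ages came close without overlapping, and Elovl1 was not called (log2 fold change -0.38, SE 0.148, adjusted p = 0.0986). Elovl5, the elongase of polyunsaturated chains, averaged 141 ± 15.2 CPM at P5 and 126 ± 11.8 CPM at 4 weeks (SD, n = 4 each), with an edgeR adjusted p of 0.298.

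Stearoyl-CoA desaturases make oleate from stearate. Scd2 was the most abundant of the 37 genes per kb of exon, at 95.1 CPM per kb at P5 and 97.6 CPM per kb at 4 weeks, and was not called (log2 fold change -0.04, SE 0.0969, adjusted p = 0.836). Scd1, its neighbour at 87.6 kb, had 1.77, 0, 1.29 and 0.423 CPM at P5, and 0.158, 6.38, 6.73 and 3.05 CPM at 4 weeks. A single read in 4-week replicate 1 and 22 to 40 reads in the other 4-week libraries left the ages overlapping (log2 fold change -2.18, SE 0.849, adjusted p = 0.101). Without that library Scd1 was lower at P5 (log2 fold change -2.58, adjusted p = 0.029, range over 18 alternatives 0.029 to 0.306). Adipocytes express Scd1 strongly, and 8 adipocyte markers summed to 0.282 to 1.45 CPM at P5 and 0 to 4.57 CPM at 4 weeks, with no read of Plin1 or Lep. Adipoq had 30 reads (4.16 CPM) in 4-week replicate 4, where Scd1 had 22 reads (3.05 CPM), and none in the other 7 libraries. Their part in the Scd1 values was not tested.

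Promoters of 4 of the 5 called synthesis genes are shown because SREBP-1 acts on such genes. The window of Acacb is not printed, since it lies at a start inside the annotated gene; it held 1 CCAAT and no GC box. RefSeq's promoter table for GRCm38.p6 held 31 of the 37 genes, and the windows here are the 250 bases before the start. Acaa2, Cpt1b, Decr1, Fads1, Scd1 and Scd2 were missing. Capitals mark GGGCGG (the GC box) and CCAAT, on either strand.
Acss2, lower at P5, chr2:155517793-155518042, plus strand: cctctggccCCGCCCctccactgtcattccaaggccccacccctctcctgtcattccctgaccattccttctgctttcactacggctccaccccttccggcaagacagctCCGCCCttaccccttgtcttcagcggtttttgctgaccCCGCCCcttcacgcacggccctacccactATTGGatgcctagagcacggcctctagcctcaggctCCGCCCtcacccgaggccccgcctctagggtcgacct
Me1, lower at P5, chr9:86695915-86696164, minus strand: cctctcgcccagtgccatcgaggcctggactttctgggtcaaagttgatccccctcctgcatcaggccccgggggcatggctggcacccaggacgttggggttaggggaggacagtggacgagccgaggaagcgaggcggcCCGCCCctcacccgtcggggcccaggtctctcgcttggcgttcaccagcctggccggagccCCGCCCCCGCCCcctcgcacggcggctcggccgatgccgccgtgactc
Fads2, higher at P5, chr19:10101504-10101753, minus strand: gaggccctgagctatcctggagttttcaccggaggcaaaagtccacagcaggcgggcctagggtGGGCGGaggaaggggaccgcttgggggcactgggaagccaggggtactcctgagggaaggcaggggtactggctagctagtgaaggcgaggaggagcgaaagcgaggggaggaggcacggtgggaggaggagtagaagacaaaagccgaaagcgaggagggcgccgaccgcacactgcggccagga
Elovl6, higher at P5, chr3:129532136-129532385, plus strand: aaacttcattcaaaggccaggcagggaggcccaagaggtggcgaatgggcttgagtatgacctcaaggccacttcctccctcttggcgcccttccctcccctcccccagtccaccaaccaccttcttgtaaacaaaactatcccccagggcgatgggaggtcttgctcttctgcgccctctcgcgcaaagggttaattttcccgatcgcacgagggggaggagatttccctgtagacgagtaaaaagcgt
Acss2 had 4 GC boxes and 1 CCAAT, Me1 had 3 GC boxes and no CCAAT, Fads2 had 1 GC box and no CCAAT, and Elovl6 had neither. Over the 31 windows, that of Acacb included, 64.5% held a GC box and 45.2% a CCAAT, against 59.6% and 36.7% of 9293 windows of tested genes. By pathway, 6 of 12 synthesis and 14 of 19 oxidation windows held a GC box. A CCAAT was in 6 of the synthesis and 8 of the oxidation windows. The SREBP-1 element TCACNCCAC was in none of the 31 windows and in 0.936% of those of tested genes, and the E-box CACGTG was in that of Elovl5 alone and in 8.49% of those of tested genes. The direct repeat of 2 copies of AGGTCA with 1 base of any kind between them, bound by PPAR with its partner RXR, was in none of the 31 and in 0.043% of windows of tested genes. A motif match is a description of these letters, and its absence says only that they are not in these 250 bases.

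Among oxidation genes, calls fell on acyl-CoA dehydrogenases and on the hydratase, and all were small. Acyl-CoA dehydrogenases divide the work by chain length. Acads, which acts on short chains (chromosome 5, 115110299 to 115119346), had 52.9, 53.8, 45.9 and 48.6 CPM at P5, and 37.3, 28.8, 41.7 and 39.9 CPM at 4 weeks. The ages did not overlap, and Acads was 1.36-fold higher (log2 fold change 0.44, SE 0.129, edgeR adjusted p = 0.0309). Acadl, which acts on long and branched chains (chromosome 1, 66830839 to 66863309), had 32.9, 32.2, 27.3 and 23.4 CPM at P5, and 39.8, 35.5, 45.8 and 36.2 CPM at 4 weeks. It was 1.36-fold lower at P5 without overlap (log2 fold change -0.44, SE 0.141, edgeR adjusted p = 0.048). Acadl is listed on 2 contigs whose reads were summed, and 46.8% of its exon reads mapped uniquely.

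Acadm, for medium chains, and Acadvl, for very long chains, had log2 fold changes of 0.02 and -0.00091 with adjusted p-values of 0.925 and 0.997. Acadm had 49.1 to 62.3 CPM at P5 and 45.8 to 61.9 CPM at 4 weeks. Acadvl had 50.3 to 63.3 CPM at P5 and 50.6 to 58.5 CPM at 4 weeks. It is listed on 2 contigs whose reads were summed, and 0% of its exon reads mapped uniquely. Exons of Dvl2 overlap those of Acadvl on the other strand. Per kb of exon, the mean levels of the 4 dehydrogenases spanned 14.9 to 26.9 CPM per kb at P5 and 19.7 to 25.9 CPM per kb at 4 weeks, with Acads highest and Acadl lowest at P5.

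Echs1, the short-chain enoyl-CoA hydratase (chromosome 7, 140105710 to 140116421), had 59.4, 51.9, 43.0 and 45.3 CPM at P5, and 38.7, 31.4, 35.7 and 38.6 CPM at 4 weeks. All P5 libraries were higher, P5 replicate 1 most of all, and Echs1 was 1.38-fold higher (log2 fold change 0.47, SE 0.13, edgeR adjusted p = 0.0254). Its exons overlap those of Paox on the other strand. Next in the cycle, Hadh, the short-chain 3-hydroxyacyl-CoA dehydrogenase, had 98.6, 82.2, 89.7 and 85.3 CPM at P5 and 66.8, 75.7, 80.1 and 71.2 CPM at 4 weeks. The ages did not overlap, but Hadh was not called (log2 fold change 0.28, SE 0.0939, adjusted p = 0.061). DESeq2 called it (adjusted p = 0.043), as did edgeR without P5 replicate 2 (adjusted p = 0.0498), and its 20 alternatives ranged from 0.043 to 0.523.

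With 1 library left out, the log2 fold change was 0.36 to 0.51 for Acads and 0.37 to 0.53 for Echs1. For Acadl it was -0.51 to -0.35. The calls of these 3 oxidation genes were each lost when any 1 of several libraries was left out. That of Acads was lost without P5 replicate 1, 2 or 4 (adjusted p = 0.0686, 0.0628 and 0.0545) and without 4-week replicate 1, 2 or 4 (adjusted p = 0.0696, 0.0529 and 0.0511). That of Acadl was lost without P5 replicate 3 or 4 (adjusted p = 0.114 and 0.129) and without 4-week replicate 1, 3 or 4 (adjusted p = 0.102, 0.138 and 0.0692). Echs1 lost its call without P5 replicate 1 and without 4-week replicate 2 or 3 (adjusted p = 0.0716, 0.0523 and 0.0592). With Y-linked reads as a covariate none of the 3 was called, with adjusted p = 0.0876 for Acads, 0.107 for Acadl and 0.125 for Echs1, where 10.1% of all genes were called. Over their 20 alternatives, adjusted p ran from 0.0124 to 0.82 for Acads, 0.0355 to 0.644 for Acadl and 0.00921 to 0.252 for Echs1.

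The trifunctional protein carries out the last 3 steps on long chains. Its alpha subunit gene Hadha and beta subunit gene Hadhb start back to back on chromosome 5, with 86 bases between the annotated genes in GENCODE M21. Hadha had 92.8, 84.6, 82.3 and 83.6 CPM at P5, and 80.1, 83.2, 80.3 and 89.5 CPM at 4 weeks. Its ages overlapped in part, and it was not called (log2 fold change 0.04, edgeR adjusted p = 0.782). Hadhb had 112, 92.8, 103 and 86.2 CPM at P5, and 76.5, 85.6, 80.4 and 84.9 CPM at 4 weeks, with no overlap and no call (log2 fold change 0.27, SE 0.0963, adjusted p = 0.0782). Hadhb was called without P5 replicate 4 (adjusted p = 0.0468, range over 20 alternatives 0.0212 to 0.52), and 15.6% of its exon reads mapped uniquely. Acaa2, the mitochondrial thiolase, averaged 45.6 ± 8.59 CPM at P5 and 39.0 ± 3.71 CPM at 4 weeks (SD, n = 4 each; adjusted p = 0.315).

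**Figure D3:**
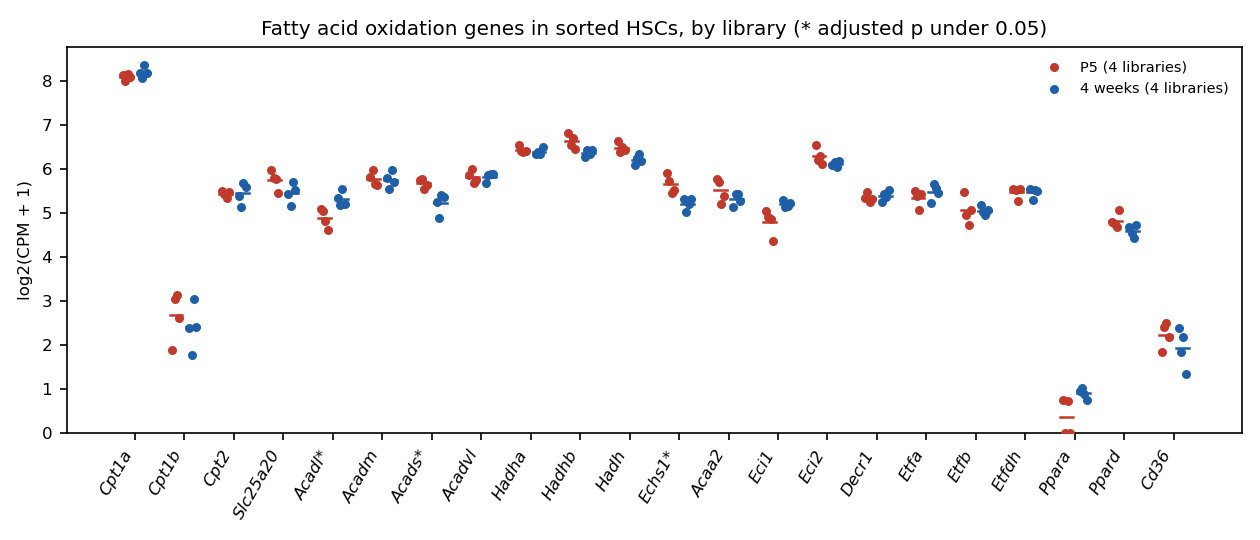
Level of each oxidation gene in each library, as log2(CPM + 1), with P5 libraries in red left of 4-week libraries in blue. Horizontal bars are means of the log2 values of 4 libraries, and asterisks mark genes with an adjusted p under 0.05. Cpt1a had the highest CPM, not corrected for length, and Ppara the lowest, with 2 P5 libraries of Ppara at 0.

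No gene of the carnitine shuttle was called. Cpt1a, the gatekeeper of oxidation outside muscle, was the most abundant oxidation gene per kb of exon. It had 280, 255, 284 and 272 CPM at P5, and 288, 266, 327 and 288 CPM at 4 weeks (log2 fold change -0.1, SE 0.0783, adjusted p = 0.432). Cpt1b, the muscle form, had 2.73 to 7.76 CPM at P5 and 2.41 to 7.24 CPM at 4 weeks (adjusted p = 0.64). Per kb, Cpt1b was 1.72% to 4.88% of the carnitine palmitoyltransferase RNA of both at P5 and 1.60% to 3.82% at 4 weeks. Of Cpt1b's exon reads 33.8% mapped uniquely, and its exons overlap those of Gm44502 on the same strand. For Cpt2, the inner membrane enzyme, the log2 fold change was -0.02 (SE 0.13, adjusted p = 0.936), and for Slc25a20, the carnitine carrier, 0.3 (SE 0.142, adjusted p = 0.177).

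Auxiliary enzymes deal with double bonds of unsaturated chains. Eci1, an enoyl-CoA isomerase, had 31.9, 29.1, 28.1 and 19.5 CPM at P5 and 38.4, 34.1, 34.7 and 36.4 CPM at 4 weeks. The ages did not overlap, and Eci1 was not called (log2 fold change -0.4, SE 0.149, adjusted p = 0.0835). Eci2, the other isomerase, and Decr1, the dienoyl-CoA reductase, had log2 fold changes of 0.18 and -0.05 (adjusted p = 0.269 and 0.827). No gene of electron transfer was called, with log2 fold changes of -0.12 for Etfa, 0.03 for Etfb and 0.01 for Etfdh and adjusted p-values of 0.583, 0.915 and 0.974.

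Among the oxidation genes of regulation and uptake, Ppara and Cd36 were low. Ppara, the receptor that drives oxidation genes in liver, had 5, 0, 4 and 0 reads at P5 and 6, 6, 5 and 5 reads at 4 weeks and was not tested, being within a few counts of the floor of 3 reads in a library. Ppard, its relative with a role in HSC maintenance, had 24.6 to 32.4 CPM at P5 and 20.7 to 25.5 CPM at 4 weeks (log2 fold change 0.23, SE 0.138, adjusted p = 0.281). Ppard is listed on 2 contigs whose reads were summed, and 0% of its exon reads mapped uniquely. Cd36, a fatty acid transporter that marrow HSCs are known to use under stress and that macrophages, endothelium and platelets express, had 2.59 to 4.69 CPM at P5 and 1.52 to 4.27 CPM at 4 weeks (adjusted p = 0.605). At 11 to 29 reads a library, no difference in Cd36 was detected (log2 fold change 0.35, SE 0.393), and a small one could be missed at this depth.

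Intron reads of the same genes, which can come from unspliced RNA, gave another readout, chosen after seeing the data. The origin of these reads was not tested. By introns, none of the 14 synthesis genes tested was higher at P5 and 2 were lower, and none of the 22 oxidation genes was higher and 4 were lower, where 9.01% of 13180 genes were higher and 8.86% lower. Acss2 and Acacb were lower by introns too (log2 fold changes -0.69 and -0.72, edgeR adjusted p = 0.0474 and 0.023). Etfb had 13.8, 15.4, 15.2 and 13.8 intron CPM at P5, against 25.2, 24.7, 23.8 and 25.7 at 4 weeks, well apart (log2 fold change -0.77, SE 0.134, adjusted p = 0.00237), while its exon log2 fold change was 0.03. Gm45233, on the same strand, shares exonic bases with Etfb. Cpt1a, Cpt2 and Eci1 were lower by introns as well (log2 fold changes -0.3, -0.84 and -0.8, adjusted p = 0.0333, 0.0414 and 0.0444). The difference between the exon and intron changes of a gene was not tested.

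Elovl6 and Echs1, higher by exons, were not so by introns. Elovl6 had 339, 256, 233 and 287 intron CPM at P5 and 321, 315, 273 and 237 at 4 weeks (log2 fold change -0.04, SE 0.128, adjusted p = 0.86). Introns of Echs1 gave a log2 fold change of -0.38 (SE 0.198) and an adjusted p of 0.211. Of 21 oxidation genes measured both ways, 6 had opposite signs, and of 14 synthesis genes 2 had. The median intron log2 fold change was -0.15 for oxidation and -0.08 for synthesis, beside -0.012 for all genes. Introns hold antisense and nested transcripts that these unstranded reads cannot set apart, and P5 replicate 1 with its low intron share is among the P5 libraries.

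**Figure D4:**
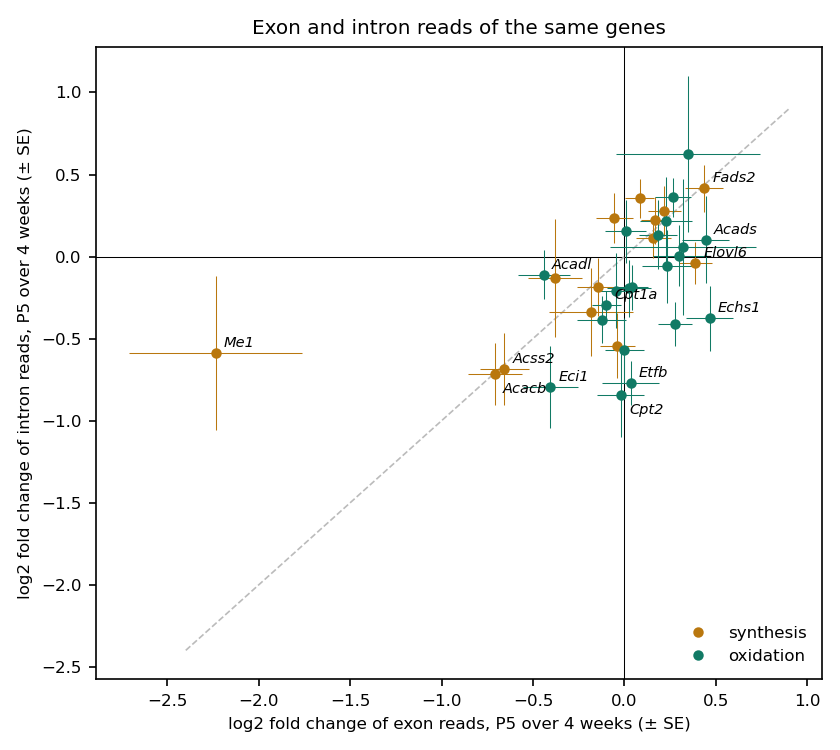
Log2 fold change of intron reads (vertical) against that of exon reads (horizontal), P5 over 4 weeks, each with its standard error, for 14 synthesis and 21 oxidation genes; the dashed line marks equal change. Named genes had an adjusted p under 0.05 by either kind of read. Acss2, Acacb and Fads2 lie near the line, and Etfb, Cpt2 and Echs1 well below it.

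A list of 124 other genes of fatty acid metabolism covered regulation, transport, peroxisomes, ketone bodies and storage. At P5, 7 of 105 tested were higher and 9 lower, so 15.2% were called, beside 16.5% of all genes tested, with a median log2 fold change of -0.05. Among transport genes, a receptor was lower and a carrier higher. Vldlr, a lipoprotein receptor that helps cells take up triglyceride, had 6.54, 6.68, 7.76 and 1.97 CPM at P5, and 25.3, 19.1, 30.6 and 29.8 CPM at 4 weeks. It was 4.59-fold lower at P5 (log2 fold change -2.2, SE 0.304, edgeR adjusted p = 0.000267). Fabp5, an intracellular carrier of fatty acids, had 34.1, 33.9, 29.6 and 22.1 CPM at P5, and 9.48, 16.9, 7.40 and 11.5 CPM at 4 weeks. It was 2.64-fold higher (log2 fold change 1.4, SE 0.23, edgeR adjusted p = 0.00097). Neither gene's ages overlapped, and of 14 tested genes of acyl-CoA synthesis and transport these were the ones called.

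AMPK is the kinase that phosphorylates and inhibits both carboxylases. Of its listed subunit genes, Prkaa2 and Prkab1 were called, in opposite directions, and Prkaa1, Prkab2 and Prkag1 were not called. Prkaa2, a catalytic subunit, had 6.54, 8.86, 5.98 and 6.49 CPM at P5, and 22.1, 23.4, 24.2 and 22.3 CPM at 4 weeks, far apart. It was 3.3-fold lower at P5 (log2 fold change -1.72, SE 0.174, edgeR adjusted p = 1.79e-05). Per kb, Prkaa2 was 4.14% to 6.57% of the RNA of both catalytic subunits at P5 and 15.4% to 17.05% at 4 weeks, the rest being Prkaa1. Prkab1, a scaffold subunit, had 71.8, 66.2, 56.9 and 64.4 CPM at P5, and 39.5, 41.4, 46.8 and 33.4 CPM at 4 weeks, and was 1.61-fold higher (adjusted p = 0.00174). Ppargc1b, a coactivator of oxidation genes, was 1.26-fold higher with an adjusted p of 0.04998, at the threshold. Its log2 fold change of 0.34 turned to -0.27 with exon plus intron reads (edgeR adjusted p = 0.241) and to -0.4 with intron reads (adjusted p = 0.117). These 3 were the called ones of 13 genes of coactivators and AMPK.

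Genes of ketone body use differed in both directions. Oxct1, the mitochondrial enzyme that activates acetoacetate, had 86.4, 57.2, 72.4 and 69.1 CPM at P5, and 113, 179, 105 and 125 CPM at 4 weeks, without overlap. It was 1.83-fold lower at P5 (log2 fold change -0.87, SE 0.162, edgeR adjusted p = 0.00237). Bdh1, which interconverts ketone bodies, was 1.89-fold higher, with 12.3 ± 1.95 CPM at P5 and 6.49 ± 2.58 CPM at 4 weeks (SD, n = 4 each; adjusted p = 0.0348). Among 17 tested genes of further mitochondrial oxidation, Acadsb and Ivd, dehydrogenases of branched-chain amino acid breakdown, and Acad11, a long-chain dehydrogenase, were lower too, by 1.54-fold, 1.25-fold and 1.3-fold (adjusted p = 0.0134, 0.03 and 0.0442). In peroxisomes, Crot, carnitine octanoyltransferase, was 1.22-fold lower (adjusted p = 0.0307).

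Fads3, a relative of the desaturases, was the only gene called among 16 elongation and mitochondrial synthesis partners, 1.58-fold higher (adjusted p = 0.0319). Nr1h3, the sterol receptor LXR alpha, which turns on Srebf1 in liver, had 2.32, 1.09, 1.13 and 0.846 CPM at P5, and 4.42, 3.10, 4.54 and 3.74 CPM at 4 weeks. It was low and 2.89-fold lower at P5 (adjusted p = 0.0226), the only call among 11 regulators. Agpat1 and Agpat3, acyltransferases of glycerolipid synthesis, were 1.25-fold higher and 1.27-fold lower (edgeR adjusted p = 0.0314 and 0.0279). They were the called ones of 18 genes of triglyceride storage. Agpat1 is listed on 4 contigs whose reads were summed, and it was not among the genes tested with uniquely mapped reads. Vldlr, Fabp5, Prkaa2 and Prkab1 kept their calls in all 20 alternatives, and Oxct1 in 18, losing it with intron reads alone or added.

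A further 10 calls each fell away without some single library. Acadsb lost its call without 4-week replicate 4 (adjusted p = 0.0547). Fads3 lost it without P5 replicate 2 or 3 or 4-week replicate 1 or 4 (adjusted p = 0.0683 to 0.0938). Bdh1 lost it without P5 replicate 1 or 4 or 4-week replicate 1, 3 or 4 (0.0708 to 0.0924), and Ivd without P5 replicate 3 or 4 or 4-week replicate 2, 3 or 4 (0.0580 to 0.0892). Nr1h3 kept it only without P5 replicate 1 or 4-week replicate 2 (otherwise 0.0529 to 0.0714), and Ppargc1b only without either age's replicate 2 (otherwise 0.0671 to 0.15). Crot kept it only without P5 replicate 1 or 2 (otherwise 0.0536 to 0.08825), and Agpat3 only without P5 replicate 4 or 4-week replicate 3 (otherwise 0.0501 to 0.0773). Acad11 kept it only without P5 replicate 2 (otherwise 0.0507 to 0.113), and Agpat1 only without 4-week replicate 1 (otherwise 0.0534 to 0.0764). With Y-linked reads as a covariate, Nr1h3 alone of these 10 kept its call (edgeR adjusted p = 0.0357). With the replicate block Fads3 alone did (edgeR adjusted p = 0.016). With intron reads, the direction also turned for Crot, Acad11 and Agpat1, whose log2 fold changes were then 0.013, 2.3e-05 and -0.098 (edgeR adjusted p = 0.962, 0.9999 and 0.757).

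**Figure D5:**
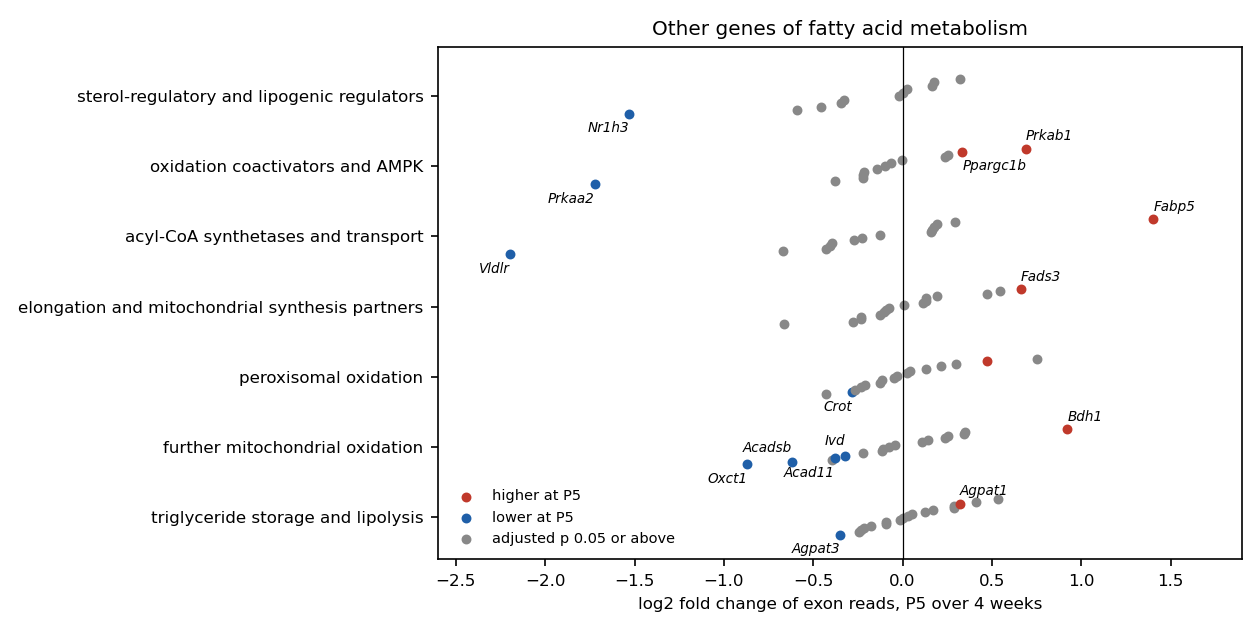
Log2 fold change of exon reads, P5 over 4 weeks, for 105 other genes of fatty acid metabolism, by role. Red points were higher and blue points lower at P5 at an adjusted p under 0.05, with the names of the genes described, and grey points were not called. Vldlr, Prkaa2 and Nr1h3 lie farthest to the left and Fabp5 farthest to the right.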

How the data were processed

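RNA was sequenced from 100 sorted cells a library; per the labels' protocols cDNA was made and libraries prepared with a Nextera XT kit, without molecular identifiers, so depth covers counting error only. The authors deposited raw read counts per gene over exons and introns and RPKM values. The RPKM equal exon reads scaled to exon length and to gene reads and were not tested. Reads were trimmed, per the file headers, and mm10 is the build in the submitters' processing notes. The sources used here do not give the aligner or counter. Headers of 2 4-week files carry each other's number, and titles were followed. In 1 file, 24 names turned into dates were restored by position. Rows of a gene on several contigs were summed (969 genes, 3 of them members), leaving 22050. Exon counts were tested with edgeR 4.0.16 (R 4.3.3, TMM, filterByExpr, quasi-likelihood, age alone), with Benjamini-Hochberg adjustment over 12235 genes and a threshold of 0.05. Approximate standard errors are the log2 fold change over the root of F. The procedure was tested on simulated data. Intron CPM were scaled to intron reads.

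Alternatives were a replicate block, each library left out, 2 other filters, DESeq2 1.42.0 and its size factors, limma 3.58.1 (voom), uniquely mapped reads, exon plus intron reads, a covariate for Y-linked reads (over 100), libraries with such reads alone, copies not summed and, added after seeing the data, intron reads. All 37 members were named, and every other pathway gene that was called, except a result not reported here. Members and lists were chosen with earlier results of these data known. Positions come from RefSeq and exon overlaps from GENCODE M21, both on GRCm38, the assembly of mm10. Figures used Python 3.11.15 and matplotlib 3.10.9. HSCs cultured for 1 day, named in the series text, were not analysed here. Older names were looked up among RefSeq synonyms, and all 124 other genes were found.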

Additional observations from a re-analysis of the deposited data

Results flagged for a closer look

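Among the 4 libraries of an age, 2 values stood apart from the other 3 by Dixon's test, of 78 sets of 4 examined, where chance flags about 1 in 20. Elovl5 had 144 CPM in 4-week replicate 2, and 119 to 122 CPM in the other 4-week libraries. Etfdh had 37.8 CPM in P5 replicate 3, and 44.9 to 46.1 CPM in the other P5 libraries. Neither gene was called between the ages.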

How the results depend on the processing

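Of the 714 values of single members over 20 alternatives, 621 kept their call and direction or, uncalled, moved by less than 1 SE. A further 39 uncalled values moved by more, 38 values lost their call, 11 gained one, and 5 reversed where either fit called the gene. Uncalled values near 0 changed sign in 40 cases. The reversed values were Elovl6 at -0.039 and Etfb at -0.38 with exon plus intron reads, and Elovl6 at -0.039, Echs1 at -0.38 and Etfb at -0.77 with intron reads; the cause was not tested. Genes called over all genes were 2023, against 1300 with the replicate block. They were 1236 with Y-linked reads as a covariate and 1257 in the 6 libraries with such reads, which have fewer P5 libraries. The covariate fit, like that of the 6 libraries, sets P5 replicates 2 and 4 against the 4-week libraries, so these are not separate checks.

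Replicate numbers did not pair the libraries, since deviations of same-numbered libraries correlated at -0.0309, -0.236, -0.0955 and -0.0517 and 0 of 4 matched best with their own number. With the replicate block 0 oxidation genes were higher and 0 lower, and the synthesis counts were 2 and 3 as without it. Leaving out 1 library gave 0 to 2 oxidation genes higher and 0 to 1 lower, 2 to 3 synthesis genes higher and 3 to 4 lower. With Y-linked reads as a covariate, and in the libraries with such reads, 1 synthesis gene was higher and 0 oxidation genes were higher or lower. Without a filter, with DESeq2's size factors or with copies not summed, 0 oxidation genes were lower. Exon plus intron reads gave 1 oxidation gene higher and 2 lower, and intron reads gave 0 synthesis genes higher, 0 oxidation genes higher and 4 lower. Ppara, Scd1, Me1, Cpt1b and Cd36 were limited by depth.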
